A study of Mus musculus with 6 samples.

Results

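Complexes I, II, III and V of the mitochondrial respiratory chain were followed in CD4+CD8+ double-positive thymocytes that lacked the heme exporter gene Flvcr1, against double-positive thymocytes that had it. The set held every gene on the array whose old or current symbol starts with Nduf, Sdh (succinate dehydrogenase subunits and their assembly factors), Uqcr or Atp5, with cytochrome c oxidase and Cyc1 left out. It came to 79 genes and 125 probes among 20289 named genes, and 74 of the 79 genes were measured, that is, detected with a p under 0.05 on at least 3 of 6 arrays, as were 8808 genes in all. The 6 arrays carried total RNA of sorted double-positive thymocytes from thymuses of mice on a C57BL/6 background, 3 labelled Flvcr-/- (Flvcr-deleted) and 3 labelled Flvcr+/+ (control). The sources used here give no other allele or treatment, no age or sex and no means of deletion. Whether replicates are different animals is not stated, and the p-values below then reflect only how far these samples vary, which may be partly technical.

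Complex I takes electrons from NADH, complex II takes them from succinate, and both pass them to ubiquinone, from which complex III hands them on to cytochrome c. Complex V, the ATP synthase, makes ATP from the proton gradient built by complexes I, III and IV. Complexes I, II and III carry iron-sulphur clusters, and complexes II and III also carry heme, whereas complex V carries neither. Subunits come from nuclear genes, which are described here, and from the mitochondrial genome.

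The promoters of these genes are shown first, because nuclear respiratory genes are known for sites of NRF1, of ETS factors such as GABP and of YY1 close to their start. RefSeq windows of 300 bases (GRCm38.p6, 250 before to 50 after a transcription start) were found for 66 of the measured genes, in 72 windows. The NRF1 motif (GCGCA, any base, then GCGC), searched like the others on both strands, stood in 27.8% of the 72 windows, against 10.9% of the 9094 windows of all measured genes and 4.60% of all 32851 windows. The YY1 motif AAGATGGC stood in 18.1%, against 4.89% and 2.75%, and the ETS motif CCGGAAG in 26.4%, against 19.5% and 8.86%. A plain CCAAT motif was as frequent as elsewhere, at 40.3%, against 38.3% and 37.4%. The motif TATAAA stood in 11.1%, against 6.95% and 13.6%. These shares describe letters in windows, with no test, and the windows of the set had a median GC content of 59.0%, against 60.7% for all measured genes and 52.7% for all windows. The windows below were chosen for their motifs, with at least 1 from each complex. NRF1, ETS and YY1 matches are in capitals and the sequence runs 5′ to 3′ along the gene, with the start site at base 1 and no base 0.
Ndufb4, chr16:37654319-37654618, minus strand, complex I, 3 NRF1 matches starting at -191, -79 and -22: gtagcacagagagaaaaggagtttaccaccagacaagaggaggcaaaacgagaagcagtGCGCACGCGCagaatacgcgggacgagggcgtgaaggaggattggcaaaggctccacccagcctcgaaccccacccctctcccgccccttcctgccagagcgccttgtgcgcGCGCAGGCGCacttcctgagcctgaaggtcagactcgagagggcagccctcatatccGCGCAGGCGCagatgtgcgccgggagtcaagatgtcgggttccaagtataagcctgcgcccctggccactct
Ndufs6, chr13:73328433-73328732, minus strand, complex I, an NRF1 match at -16 and a YY1 match at 34: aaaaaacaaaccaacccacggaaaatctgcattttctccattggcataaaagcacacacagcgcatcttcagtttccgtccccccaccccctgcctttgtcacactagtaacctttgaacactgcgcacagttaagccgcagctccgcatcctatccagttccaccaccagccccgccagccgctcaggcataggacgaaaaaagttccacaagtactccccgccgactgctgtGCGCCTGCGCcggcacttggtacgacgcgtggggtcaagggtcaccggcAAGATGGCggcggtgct
Sdhd, chr9:50603800-50604099, minus strand, complex II, an NRF1 match at -79 and an ETS match at -46: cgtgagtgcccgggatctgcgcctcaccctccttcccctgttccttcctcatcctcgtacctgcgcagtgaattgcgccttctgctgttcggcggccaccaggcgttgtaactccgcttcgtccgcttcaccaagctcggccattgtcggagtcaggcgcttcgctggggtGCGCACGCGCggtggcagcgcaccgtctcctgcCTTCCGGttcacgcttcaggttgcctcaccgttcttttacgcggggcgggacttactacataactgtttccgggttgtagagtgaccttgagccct
Uqcrc1, chr9:108936398-108936697, plus strand, complex III, NRF1 matches at 6 and 31: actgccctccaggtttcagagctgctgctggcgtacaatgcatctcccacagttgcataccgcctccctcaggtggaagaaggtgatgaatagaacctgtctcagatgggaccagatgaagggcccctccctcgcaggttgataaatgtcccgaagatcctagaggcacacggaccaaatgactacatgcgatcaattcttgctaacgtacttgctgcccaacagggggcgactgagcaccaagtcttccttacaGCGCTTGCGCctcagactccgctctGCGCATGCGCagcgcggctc
Atp5k, chr5:108434350-108434649, minus strand, complex V, an NRF1 match at -50 and an ETS match at 13: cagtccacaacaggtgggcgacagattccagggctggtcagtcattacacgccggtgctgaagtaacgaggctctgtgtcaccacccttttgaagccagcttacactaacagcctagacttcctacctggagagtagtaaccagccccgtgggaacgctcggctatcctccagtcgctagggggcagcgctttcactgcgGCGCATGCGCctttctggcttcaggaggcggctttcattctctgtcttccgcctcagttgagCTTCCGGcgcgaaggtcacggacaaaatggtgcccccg
The matches at 31 of Uqcrc1 and at -50 of Atp5k read as the motif on both strands and are counted once here.

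The arrays and their labels were checked first. Each array detected 15307 to 15792 of 45281 probes, and arrays correlated at 0.977 to 0.986 within groups and at 0.978 to 0.984 between groups. Their number limits the precision of every value below. Flvcr1 read 9.92, 10.45 and 10.13 on Flvcr-deleted arrays, against 11.01, 11.28 and 10.93 on control arrays (log2 signal), a log2 fold change of -0.91 (limma adjusted p = 0.0317), and the sources used here do not place its probe inside or outside the deleted part. Of 11 double-positive markers 9 were measured, among them Cd4, Cd8b1, Rag1 and Rag2, with a median log2 fold change of 0.01 (Rag1 at -0.13, Ptcra at -0.18), while Cd8a was detected on 0 arrays. Of 7 B cell markers only Cd79b was measured, at 10.68, 10.24 and 10.31 in Flvcr-deleted cells and 10.07, 10.48 and 9.91 in controls (log2 fold change 0.26), with Ms4a1 and Pax5 detected on 0 arrays. Of 8 dendritic cell or macrophage markers 4 were measured, 0 passed and their mean log2 signal was 7.13 to 7.80 on Flvcr-deleted arrays and 7.59 to 7.93 on control arrays, with Itgax, Flt3 and Adgre1 detected on 0 arrays. Among them Cd74, a partner of class II molecules, read 5.80, 6.07 and 5.63 on Flvcr-deleted arrays, against 7.07, 6.20 and 7.60 on control arrays. Its groups did not overlap (log2 fold change -1.13, unadjusted p = 0.00282, limma adjusted p = 0.559), and Cst3 stood at -0.07. Globin signal varied between arrays. Hbb-b1 read 7.86, 12.32 and 12.47 on Flvcr-deleted arrays and 12.07, 10.45 and 10.46 on control arrays, and Hba-a1 7.79, 11.89 and 12.41 on Flvcr-deleted arrays and 11.97, 9.83 and 10.20 on control arrays. The part of other cells in the values below was not tested. Xist, a transcript of female cells, was low on Flvcr-deleted array 1 and control array 3 only, at 4.72 on each. Each group thus held 1 such array, and its arrays were not all repeats of 1 sample.

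None of the 74 measured genes passed. By limma, 0 of 74 had an adjusted p under 0.05, where 0.148% of all 8808 measured genes did, and the adjusted p of every member rounded to 1. At an unadjusted p under 0.05 there was 1 member, the assembly factor gene Ndufaf3, against 4.63% of all measured genes. Log2 fold changes, given throughout as Flvcr-deleted minus control, ran from -0.41 to 0.38 with a median of 0.01, where the median of all measured genes was also 0.01. In number, 41 read above 0 and 33 below, where 4564 of all 8808 measured genes read above 0 and 4244 below. In 54 of the 74 the log2 fold change lay within 0.1 of 0 (73.0%), as it did in 41.8% of all measured genes, without matching for signal. The groups did not overlap for 6 members, 4 higher (5.41%) and 2 lower (2.70%), against 9.59% of all measured genes, 5.23% higher and 4.36% lower. These shares lie near or below the background. In bulk RNA, fewer cells of a type and less RNA per cell cannot be told apart.

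The arrays bounded the differences more tightly for these genes than for most. The 95% interval of the fold change from limma lay within 1.5-fold in either direction for 66 of the 74 (89.2%), against 57.2% of all measured genes. Precision follows signal, and 36 of the members had a mean log2 signal of 12 or more. All 36 had intervals within 1.5-fold, as had 98.6% of the 729 measured genes that bright, so the bright members did not stand apart in this. Below that signal the count was 30 of 38 members (78.9%), against 53.5% of 8079 genes, without matching for signal within that range. The 8 members whose intervals reached past 1.5-fold were Ndufab1, Ndufb11, Ndufb4, Ndufaf3, Sdhd, Atp5k, Atp5md and Dmac2l, all with a mean signal of 8.63 or less. For those a change of that size was not excluded by these arrays.

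**Figure D1:**
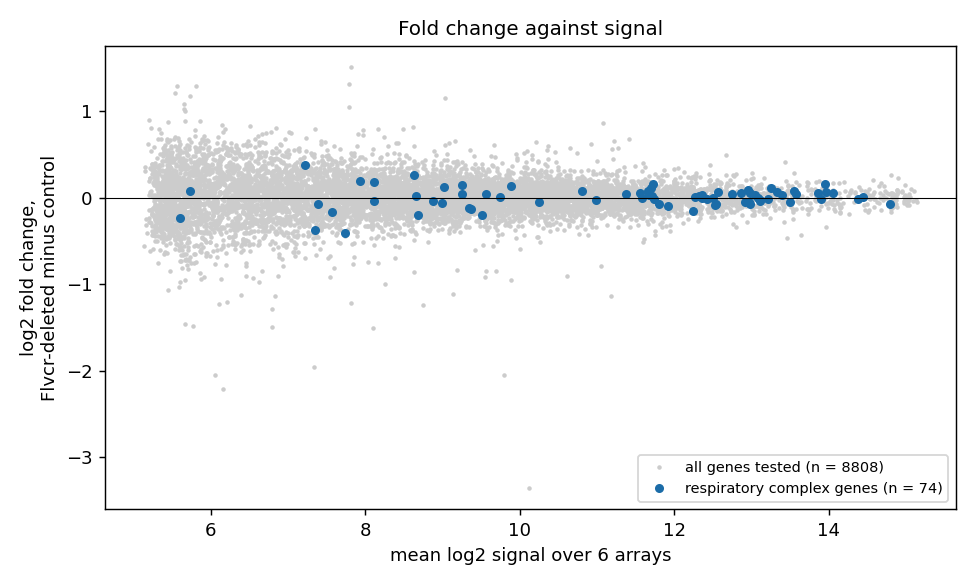
Log2 fold change (Flvcr-deleted minus control) against mean log2 signal over 6 arrays, for 8808 measured genes in grey and the 74 respiratory complex genes in blue. The respiratory complex genes lie between -0.41 and 0.38, and those far from 0 are at low signal.

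**Figure D2:**
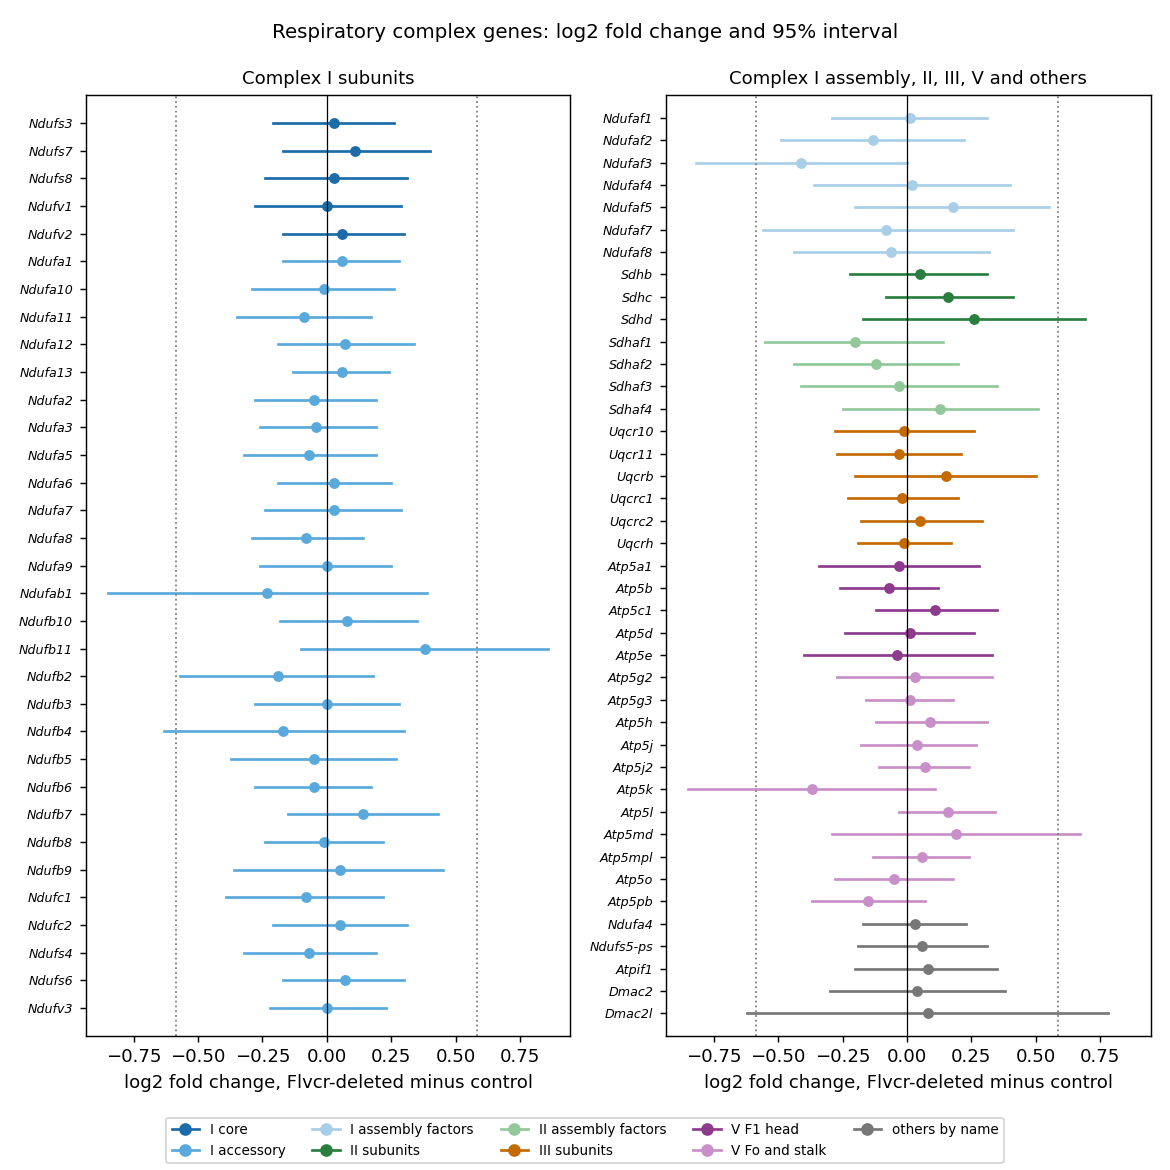
Log2 fold change of each measured gene with its 95% interval from limma, coloured by complex and role; 3 Flvcr-deleted arrays against 3 control arrays. Dotted lines mark 1.5-fold in either direction, which the intervals of 66 of the 74 genes do not reach.

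Complex I subunits showed no shift. Of 33 measured subunits 17 read above 0 and 16 below, with a median log2 fold change of 0.00 and 0 past the threshold. The measured core subunits, which bind the flavin and most of the iron-sulphur clusters or build the quinone site, had a median of 0.03. Ndufv1, which binds NADH and flavin, read 12.44, 12.43 and 12.64 on Flvcr-deleted arrays, against 12.39, 12.30 and 12.81 on control arrays, a log2 fold change of 0.00 (SE 0.133). The values overlapped, and the lowest and the highest were both on control arrays. Ndufs7, which carries the cluster next to the quinone site, read 11.75, 11.57 and 11.96, against 11.73, 11.46 and 11.75 in controls. Its log2 fold change was 0.11 (SE 0.133), with a fold interval of 0.889 to 1.32 and overlapping groups. Ndufs8, the carrier of a further pair of clusters, stood at 0.03, Ndufv2 at 0.06 and Ndufs3, a core subunit without a cluster, at 0.03. By module, 7 subunits of the NADH-oxidising module had a median of 0.00, 4 of the quinone module 0.03 and 18 of the membrane arm -0.01.

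Accessory subunits of complex I surround the core and are needed for its assembly and stability. Ndufb11, an X-linked accessory subunit of the membrane arm, had the highest log2 fold change of the set, 0.38 (SE 0.223, unadjusted p = 0.109). It read 7.06, 7.60 and 7.57 on Flvcr-deleted arrays, against 7.13, 6.81 and 7.15 on control arrays. Flvcr-deleted array 1 lay among the controls, so the groups overlapped. Without that array the log2 fold change of Ndufb11 was 0.55. The other X-linked member, Ndufa1, stood at 0.06. Ndufb7, of the distal membrane arm, was the only complex I subunit whose groups did not overlap on its brightest probe. It read 9.98, 9.94 and 9.97 in Flvcr-deleted cells, against 9.87, 9.75 and 9.84 in controls, a log2 fold change of 0.14 (SE 0.136, unadjusted p = 0.316). Ndufa13, which is also known as the cell death regulator GRIM-19, stood at 0.06 (SE 0.0859), with a fold interval of 0.917 to 1.18. At the other end, Ndufab1, the mitochondrial acyl carrier protein, read 5.37, 5.45 and 5.64 in Flvcr-deleted cells, against 5.54, 6.19 and 5.41 in controls. Its log2 fold change of -0.23 came with an SE of 0.289, near background, and control array 2 alone was high. Ndufb2 stood at -0.19 (SE 0.177), Ndufb4, whose promoter is printed above, at -0.17 (SE 0.218) and Ndufa8 at -0.08 (SE 0.101). Ndufs6, with both motifs above, stood at 0.07, and Ndufs4, a frequent site of human complex I deficiency, at -0.07 on its brightest probe. The dimmer measured probes of Ndufs4 gave 0.17, -0.02 and -0.07, and none passed. On the probe at 0.17 (SE 0.105, limma unadjusted p = 0.123) all Flvcr-deleted values lay above all controls.

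Assembly factors of complex I build its modules and leave the finished enzyme. The 7 that were measured had a median log2 fold change of -0.06, 3 above 0 and 4 below. Ndufaf3, which acts early on the quinone module, read 7.71, 7.34 and 7.55 on Flvcr-deleted arrays, against 7.80, 8.04 and 7.99 on control arrays. All 3 Flvcr-deleted values were below all 3 control values. The log2 fold change was -0.41 (SE 0.193, fold interval 0.565 to 1.00, unadjusted p = 0.05, limma adjusted p = 1). Ndufaf4, which acts with Ndufaf3, stood at 0.02 (SE 0.179), with 8.51, 8.94 and 8.55 against 8.75, 8.70 and 8.48 in controls, and its groups overlapped. Ndufaf5, which hydroxylates Ndufs7, read 8.26, 8.16 and 8.21 in Flvcr-deleted cells, against 8.17, 7.89 and 8.03 in controls. Flvcr-deleted array 2 lay just below control array 1, and the log2 fold change was 0.18 (SE 0.176). A dimmer probe of Ndufaf5 gave 0.54 with groups that did not overlap, and it did not pass either. Ndufaf2, a late factor, stood at -0.13 (SE 0.167).

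Complex II is the succinate dehydrogenase of the citric acid cycle, and 3 of its 4 subunits were measured. All 3 read above 0, with a median of 0.16, and 0 passed. Sdhc, a membrane anchor that shares the heme of the complex with Sdhd, read 11.80, 11.74 and 11.90 in Flvcr-deleted cells, against 11.66, 11.54 and 11.75 in controls. Only Flvcr-deleted array 2, the lowest of its group, reached the controls, at 11.74 just below control array 3. The log2 fold change of Sdhc was 0.16 (SE 0.114), its fold interval 0.946 to 1.33 and its unadjusted p 0.173. Sdhd, the other anchor, read 8.47, 9.11 and 8.70, against 8.45, 8.28 and 8.77 in controls. Its log2 fold change was 0.26 (SE 0.201, fold interval 0.889 to 1.61), and Flvcr-deleted array 2 alone lay above every control. Leaving out 1 array at a time gave Sdhd values of 0.08 to 0.41. Sdhb, the iron-sulphur subunit, stood at 0.05 on its brightest probe and at -0.20 on another bright probe, and neither passed. Of the 4 assembly factors 3 read below 0, with a median of -0.08 and 0 passed, and the difference between subunits and assembly factors was not tested. Sdhaf1, which helps to insert the iron-sulphur clusters into Sdhb, read 9.30, 9.47 and 9.49, against 9.46, 9.89 and 9.51 in controls, a log2 fold change of -0.20 (SE 0.161). That value rests on control array 2, and without it the log2 fold change was 0.00. Sdhaf2, which attaches flavin to Sdha, stood at -0.12 and Sdhaf4, a chaperone of flavinated Sdha, at 0.13. Sdhaf3, a partner of Sdhaf1, stood at -0.03 on its brightest probe, at 0.11 on its other probe and at 0.04 with both averaged.

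**Figure D3:**
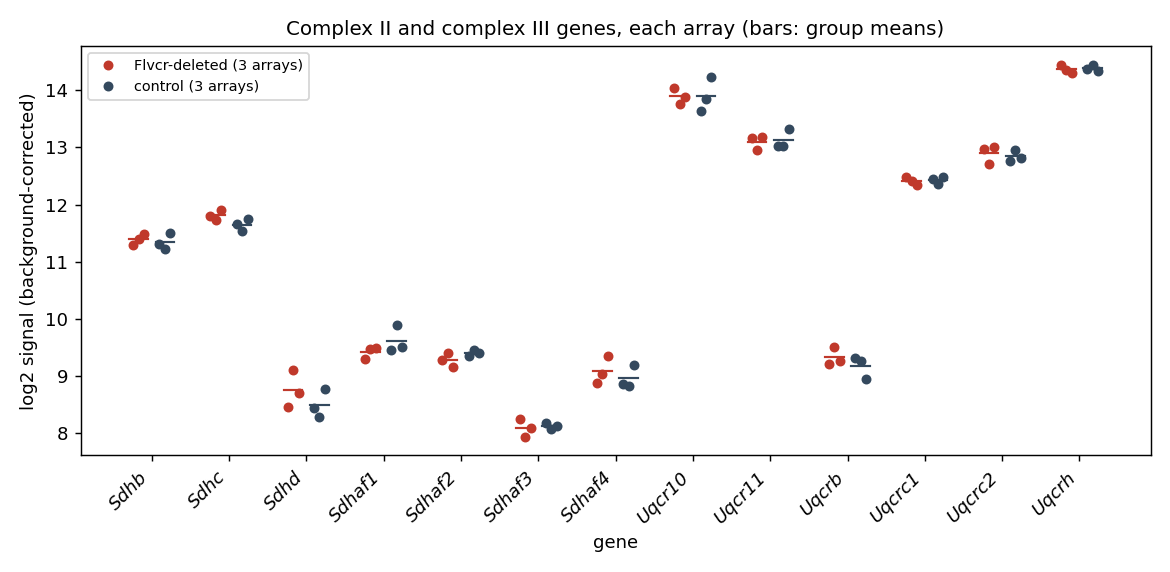
Log2 signal of the measured complex II and complex III genes on each array, 3 Flvcr-deleted arrays in red left of 3 control arrays in dark blue, with bars at the group means. The groups overlap for every gene shown, and Sdhd has its highest value on Flvcr-deleted array 2; signals of different genes come from different probes and are not comparable.

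Complex III had the smallest range of fold changes among the complexes. Its 6 measured subunits had log2 fold changes of -0.03 to 0.15 with a median of -0.01, and 2 read above 0. The iron-sulphur subunit gene Uqcrfs1 and Uqcrq were not measured and Cyc1 was left out of the set, so these values do not cover them. Uqcrc1, a core protein whose promoter is printed above, read 12.48, 12.42 and 12.35 in Flvcr-deleted cells, against 12.45, 12.37 and 12.48 in controls. The groups overlapped throughout, with a log2 fold change of -0.02 and a fold interval of 0.851 to 1.15. Its partner Uqcrc2 stood at 0.05 (fold interval 0.881 to 1.22). Uqcrh, the hinge protein that contacts cytochrome c1, read 14.45, 14.36 and 14.31, against 14.38, 14.45 and 14.33 in controls, a log2 fold change of -0.01 (fold interval 0.878 to 1.12). Uqcrb, at the quinone-binding side, had the highest value, 0.15 (SE 0.165), and control array 3 was its lowest at 8.95. The small subunits Uqcr10 and Uqcr11 stood at -0.01 and -0.03. Uqcr10 spread widely among controls, from 13.64 on control array 1 to 14.23 on control array 3.

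Complex V consists of a catalytic F1 head and a membrane part, Fo, joined by stalks. Of 16 measured subunits 10 read above 0 and 6 below, with a median of 0.02. The F1 head, counted here together with the central stalk, 5 genes, had a median of -0.03. Atp5b, the catalytic beta subunit, read 14.83, 14.87 and 14.57 in Flvcr-deleted cells, against 14.81, 14.83 and 14.84 in controls. Only Flvcr-deleted array 3 stood below the rest, and the log2 fold change was -0.07 (SE 0.0888), or 0.03 without that array. Atp5c1, the central shaft, stood at 0.11 (SE 0.109). Atp5a1, Atp5d and Atp5e, the alpha, delta and epsilon subunits, stood at -0.03, 0.01 and -0.04.

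In Fo and the outer stalk, 11 genes had a median of 0.04. Atp5l, the g subunit at the dimer interface, was higher on all 3 Flvcr-deleted arrays, at 14.03, 14.09 and 13.96, against 13.83, 13.92 and 13.87 in controls. Its log2 fold change was 0.16 (SE 0.0857, unadjusted p = 0.0872, limma adjusted p = 1), and a second bright probe read -0.09. Atp5k, the e subunit, which sits beside it, read 7.13, 6.87 and 7.51, against 7.80, 7.42 and 7.40 in controls, a log2 fold change of -0.37 (SE 0.225) with overlapping groups. Atp5pb, the b subunit of the outer stalk, was below all controls on its brightest probe, at 12.19, 12.17 and 12.13, against 12.36, 12.23 and 12.35. Its 3 probes disagreed, with log2 fold changes of -0.15, 0.00 and, at low signal, 0.32, and none passed. Atp5h, the d subunit, read 12.92, 13.14 and 12.94, against 12.91, 12.91 and 12.90 in controls. The difference of 0.09 rests on Flvcr-deleted array 2, the others lying just above the controls. Atp5j2, the f subunit, stood at 0.07 and also did not overlap. Atp5o, the stalk protein that oligomycin sensitivity depends on, stood at -0.05 and Atp5md, a small dimer-associated subunit, at 0.19 (SE 0.226). Atp5g2 and Atp5g3 encode the same mature c subunit of the rotor ring, as does Atp5g1, which had no probe in the set. Atp5g3 read 14.41, 14.51 and 14.42, against 14.43, 14.44 and 14.43 in controls, a log2 fold change of 0.01 with a fold interval of 0.894 to 1.13. Atp5g2 stood at 0.03, with controls from 11.40 to 11.90.

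A few genes belong to the set by name rather than by place. Ndufa4, named for complex I but found in cytochrome c oxidase, stood at 0.03 (fold interval 0.887 to 1.17). Atpif1, the inhibitor of ATP synthase that is now also named Atp5if1, read 13.72, 13.51 and 13.56, against 13.46, 13.26 and 13.84 in controls. Its log2 fold change was 0.08, and 0.24 without control array 3. Dmac2l and Dmac2, once Atp5s and Atp5sl, stood at 0.08 and 0.04. The probe named for the pseudogene Ndufs5-ps stood at 0.06, and whether it also reads a similar gene was not checked. Ndufs1, Sdha, Uqcrfs1, Uqcrq and Ndufaf6 were not measured. Their probes were detected on 0 arrays, except a Uqcrfs1 probe on 1 array. Of the measured genes 72 were detected on all 6 arrays, Ndufab1 on 5 and Dmac2l on 4.

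Differences between arrays of the same group exceeded those between the groups. The mean log2 signal of the 33 complex I subunits was 11.62 ± 0.0745 in Flvcr-deleted cells and 11.62 ± 0.117 in controls (SD, n = 3 each), a difference of 0.00, while it spanned 0.14 among Flvcr-deleted arrays and 0.23 among controls. Complex I subunits were high on 1 array of each group: 29 of 33 lay above their own 6-array mean on Flvcr-deleted array 3 and 26 on control array 3. Only 5 of 33 did so on control array 2 and 8 on Flvcr-deleted array 2. In the NADH-oxidising module 7 of 7 genes lay above their mean on Flvcr-deleted array 3 and on control array 3. On Flvcr-deleted arrays 1 and 2 it was 3 and 1 of 7, and on control arrays 1 and 2 it was 0. The complex II subunits spanned 0.23 and 0.33 within the groups, against a difference of 0.16 between them. Complex III means spanned 0.10 and 0.09, and complex V means 0.10 and 0.11, with differences of 0.02 and 0.00.

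The F1 head did not follow complex I across arrays. Its median deviation was 0.18 on Flvcr-deleted array 2 and -0.14 on Flvcr-deleted array 3, where the complex I core stood at -0.08 and 0.19. On control arrays 1, 2 and 3 the F1 head stood at 0.00, -0.02 and 0.07 and the complex I core at -0.07, -0.20 and 0.04. All measured genes together stayed between -0.01 and 0.02 on every array. A list of 28 DNA replication genes, which marks dividing cells, deviated by -0.13, 0.18 and 0.13 on Flvcr-deleted arrays 1, 2 and 3 and by 0.05, -0.40 and 0.20 on control arrays 1, 2 and 3. Control array 2 was thus low for both replication and complex I, and Flvcr-deleted array 3 and control array 3 were high for both. Flvcr-deleted array 2 and control array 1 were high for replication and low for complex I. Flvcr-deleted array 1 was low for replication, with all complex I subunits at -0.04 and the core at 0.04. The part of cell division in these deviations was not tested.

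**Figure D4:**
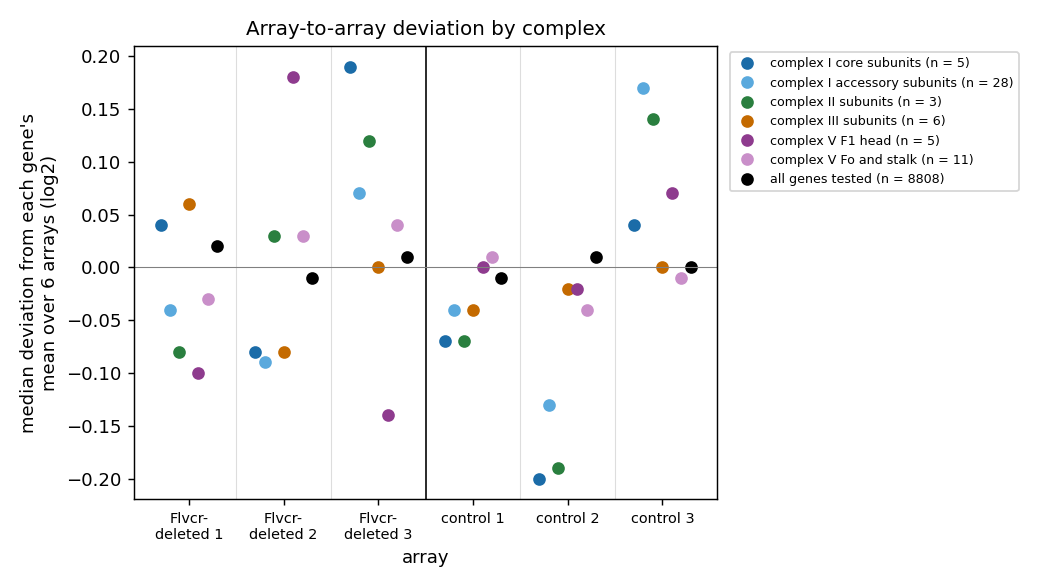
Median deviation (log2) of each gene group from its members' own means over 6 arrays, Flvcr-deleted arrays left of control arrays; colours mark the group. Complex I core subunits stand at 0.19 on Flvcr-deleted array 3 and at -0.20 on control array 2, and the F1 head stands at 0.18 on Flvcr-deleted array 2.

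Genes that work with these complexes did not pass either. Of all 8808 measured genes 4564 read above 0, the background for the counts below. Of 17 assembly factors with other names, 0 passed in either direction and 13 read above 0, with a median of 0.10. Tmem126b, a complex I assembly factor, stood at 0.41 (SE 0.214) and Tmem70, an ATP synthase assembly factor, at 0.29 (SE 0.184). Of 12 genes of cytochrome c and coenzyme Q synthesis 0 passed, with a median of 0.02. Coq4 and Coq2, of the coenzyme Q pathway, stood at 0.54 (SE 0.278) and 0.33 (SE 0.166). Of 15 citric acid cycle genes 12 read above 0 and 0 passed, with a median of 0.10, Fh1 (fumarase) at 0.35 (SE 0.185) and Suclg2 (a succinyl-CoA ligase subunit) at 0.28. For mitochondrially encoded subunits 1 probe was measured, annotated ATP6 but updated to Gm10925, so its target is uncertain. It stood at 0.03.

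Regulators of mitochondrial genes, 13 measured, had a median of 0.00 and 0 passed. Gabpa, the DNA-binding subunit of the ETS factor GABP, read 7.57, 7.51 and 7.47 on Flvcr-deleted arrays, against 7.94, 8.46 and 8.19 on control arrays. All Flvcr-deleted values were below all controls, with a log2 fold change of -0.69 (SE 0.194, unadjusted p = 0.00315, limma adjusted p = 0.601). Its other measured probe, at lower signal, read 6.62, 6.67 and 6.23 against 6.45, 5.89 and 5.86 in controls, a log2 fold change of 0.44, so the probes point in opposite directions. Myc, which drives growth and mitochondrial genes, stood at 0.43 (SE 0.316) close to background. Replication genes had a median of 0.08 (28 genes, 23 above 0, 0 passed, Prim1 0.70 and Tk1 0.45). Handling response genes had a median of -0.22 (12 genes, 2 above 0, 0 passed, Fos -1.12 and Jun -0.81).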

How the data were processed

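Illumina bead arrays, 1 per sample, measured total RNA of sorted double-positive thymocytes. In the first deposited table, each array had a linear probe intensity, not normalized, and beside it a detection p-value, per the file headers. The second deposited table held log2 values, made with lumi per the submitters' processing notes. They equalled the log2 of quantile-normalized intensities to within 5e-09, so they carried no background correction. Probe names came from the platform annotation, updated through RefSeq GRCm38.p6. The gene identifier named 28620 probes, the accession 2637, the current symbol 2128 and a synonym held by 1 gene 2343, and 56 retained the annotated name.

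Intensities were background-corrected with inferred negative controls, then quantile-normalized to log2 values by limma 3.58.1 (neqc, offset 16; R 4.3.3), which understates changes of dim probes. The 15448 probes detected on at least 3 arrays entered lmFit and eBayes (trended variance, 2-sided test). Benjamini-Hochberg adjustment ran over all of them. A gene was its measured probe with the highest mean. Intervals are the fit's 95% intervals.

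Named were members past 0.05, all of complexes II and III, the c subunit genes and members whose probes differed by over 0.4. From complexes I and V came the 4 members above 0 and 4 below 0 with the smallest unadjusted p (2 and 2 for Ndufaf). Each further list gave its 2 genes with the smallest p. Other members were named to complete a role after their values were seen. The members, lists and motifs were chosen with earlier results of these data known. On simulated arrays of 15448 probes the fit called 11.9%, 47.8% and 90.9% of probes changed 1.5-fold, 2-fold and 4-fold, with 7 false calls. Alternatives are given in the closing section. A chip block was not run, as no chip is given in the sources used here.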

Additional observations from a re-analysis of the deposited data

How the results depend on the processing

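No member passed under any of the 14 alternatives (count 0 of 72 to 79 tested in each, by limma), with the smallest adjusted p 0.501 with array weights, while the count of all genes past 0.05 ran from 1 to 30. With each array left out in turn the median log2 fold change ran from -0.06 to 0.09 for complex I subunits, -0.17 to 0.01 for its assembly factors, 0.00 to 0.13 for complex II and its assembly factors, -0.05 to 0.05 for complex III and -0.03 to 0.06 for complex V. With array weights the complex III median was 0.05, against -0.01. The other alternatives that kept all arrays left these medians within the spread between replicates. Of 35 members followed, 18 had a log2 fold change that took the other sign under at least 1 alternative and 17 had none that did. Of their 489 values 4 moved by more than the spread, to 0.03 for Atp5l, 0.06 for Atp5pb and 0.36 for Ndufaf5 when the probes of a gene were averaged, and to 0.00 for Sdhaf1 without control replicate 2. Same-numbered arrays deviated together with r of -0.148, 0.0927 and 0.109, and not every array matched its own number best. Correlations this weak over 3 arrays per group cannot show whether the numbers pair the samples, and the labels do not say. With a replicate block the count stayed at 0, and 12 genes in all passed, against 13. With 3 arrays per group, few of the 1.5-fold changes simulated over all measured probes were called. The share for the members alone, whose median SE was 0.124 against 0.188 for all measured genes, was not simulated. Members near background have wide intervals.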
